A study of Mus musculus with 36 samples.

Results

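In adult mouse liver, 54 of the 55 Pax, Lhx, Nkx, Tbx, Irx and sine oculis homeobox genes (with symbols such as Six3) carried a stretch of unmethylated DNA, as did 14556 of all 21418 autosomal protein-coding genes, and 45 of the 55 were unmethylated at the gene start itself. With the reads of all animals pooled, the median stretch was 5015 bp, compared with 1032 bp over all genes, those without one counted as 0. In single animals the median was 3137.5 to 5102 bp, below the pooled value in all but B6 male 1. The 5 genes methylated at the start were Pax4, Pax8, Nkx6-3, Tbx10 and Tbx19. Between the parental strains the inside of these stretches differed by at most 4.50 points, but the low level that defines a stretch limits such a difference. Zones called at 10 points or more lay outside the longest stretch, as they mostly did over all genes, and the longest runs of differing CpGs were at Nkx2-6 and Pax7.

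The genes were taken by symbol, as every autosomal protein-coding gene of the mm9 annotation named by the letters of these families followed directly by a digit. This gave 9 Pax, 8 Lhx, 14 Nkx, 12 Tbx and 6 Irx genes and 6 of the sine oculis family. Each was followed from 5 kb upstream of its start to 1 kb past its end, in all 30934 CpGs (a cytosine followed by a guanine, where methylation sits in mammals), and no region overlapped that of another of these genes. Whole-genome bisulfite sequencing, in which unmethylated cytosines are read as thymine, was done on liver of 24 mice. The parents were 3 males and 3 females of B6 (the inbred strain C57BL/6N) and as many of C3 (C3H/HeN). Their reciprocal offspring, B6C3F1 (B6 dam, C3 sire) and C3B6F1 (C3 dam, B6 sire), were likewise 3 males and 3 females each. Parents were mated at 10 weeks, weaning was at week 16 and livers were taken at 20 weeks of age. By then dams had borne and nursed pups, whereas F1 females were virgins. The samples of FOXA1 ChIP were not analysed here.

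The 6 families encode transcription factors that lay out the body plan. Pax proteins bind DNA through a paired domain, Lhx proteins combine a homeodomain with LIM domains, Nkx and Irx proteins have homeodomains of different classes, sine oculis proteins have a domain of their own beside the homeodomain, and Tbx proteins bind through the T-box. Most are used in the embryo, in the nervous system, eye, heart, limb, kidney, endocrine glands or skeleton, and few are known for a role in the adult liver. In many tissues genes of this kind lie in wide CpG-rich domains that escape DNA methylation and carry the Polycomb mark on histone H3 where the gene is silent. That mark, and RNA, were not analysed here.

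Methylation is given as the share of reads at CpGs that were methylated. Summed over 18887127 autosomal CpGs, each animal had 365740739 to 619888157 counts, or 19.4 to 32.8 reads per CpG, and methylation over all of them was 75.05 to 77.53%. A read over several CpGs counts once at each, here and in all sums of reads over windows and zones below. Around the starts of 7 hepatocyte genes, among them Alb and Apoa1, methylation was 16.6 to 59.0% (median 22.1%). It was 74.9 to 90.5% (median 83.6%) at 6 leukocyte genes, 2.24 to 74.5% (median 59.6%) at 5 endothelial genes and 0.644 to 44.3% (median 17.9%) at 5 stellate cell genes. Mean methylation was higher in B6 than in C3 at all 7 hepatocyte genes, by up to 13.5 points at Cps1 (29.2 and 15.7%). It was lower in B6 at all 6 leukocyte genes, by up to 4.28 points, and at 4 of 5 endothelial and 4 of 5 stellate cell genes. Between sires and dams the largest gap of a marker gene was 5.33 points. What cell makeup adds to the differences below was not tested.

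An unmethylated span was defined as the longest run within a gene's region in which running methylation over 5 CpGs, with the reads of all 24 animals pooled, stayed below 20%, with at least 10 CpGs. Within the followed regions the widest span was that of Pax7, which marks muscle stem cells, at 14640 bp. It held 547 CpGs at 4.11% methylation and ran from 665 bp upstream of the start to 13974 bp into the gene. Six3, a gene of forebrain and eye, followed at 14410 bp and Lhx5, a forebrain gene, at 14161 bp. These are widths in pooled reads. In the parents, even with windows of few reads bridged, Pax7 had a median of 6806.5 bp in B6 and 13506 bp in C3. Six3 then had 7652.5 bp in B6 and 7518 bp in C3, whereas Lhx5 had 14161 bp in both, more than Pax7. Nkx2-2, of the ventral neural tube and pancreatic islets, had 12013 bp, and Nkx6-1, of the insulin-producing beta cells, had 11690 bp. Pax6, of eye and islets, had 11041 bp, and Pax1, of the vertebral column, 10750 bp. Pax3, of neural crest and muscle, had 9837 bp, Six2, of the nephron progenitors, 9811 bp, and Lhx4, of pituitary and motor neurons, 8878 bp. The spans of Lhx5, Nkx6-1 and Six2 were longer than the genes themselves, and those of Lhx5, Pax3, Six2 and Nkx6-1 were cut where the followed region ended, as were 6 others. Followed past the region the order changed, since Lhx5 then had 16963 bp, more than Pax7. Nkx6-1 then had 12589 bp and Pax3 12252 bp, both more than Nkx2-2. Nkx2-1, of thyroid and lung, then had 11236 bp, so that it entered the 10 longest in place of Lhx4, and Six2 had 10058 bp.

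**Figure D1:**
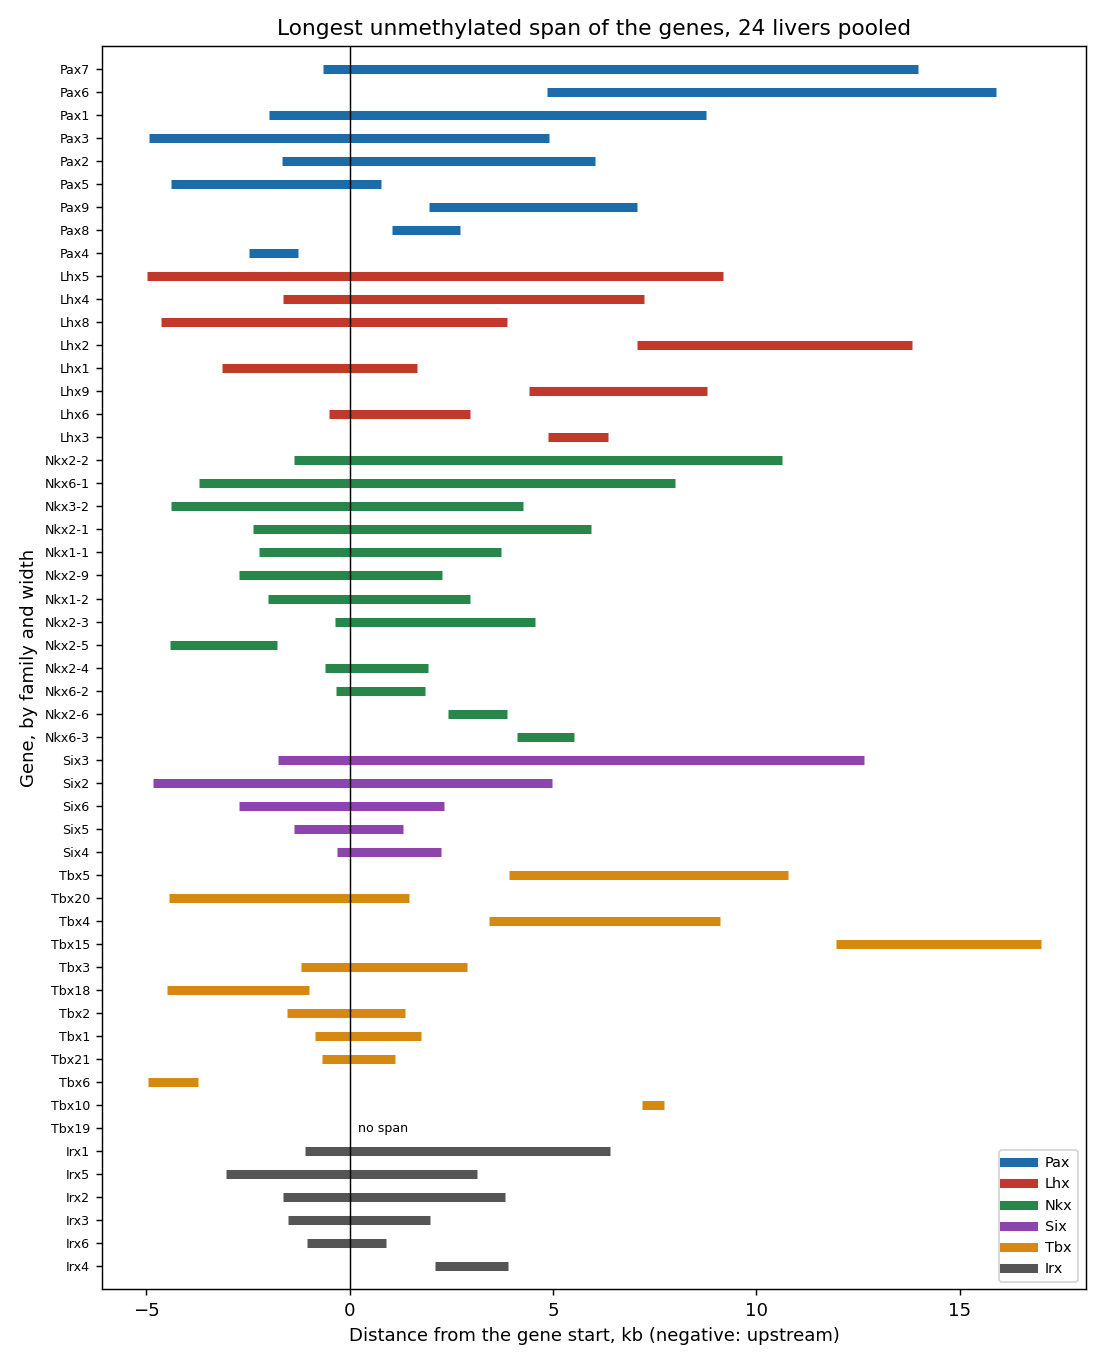
Longest unmethylated span of the 55 genes, without those not reported by name, from the pooled reads of 24 livers, as a bar against distance from the gene start in kb (vertical line), coloured by family and ordered by width within it. The Pax7 bar is the longest at 14640 bp, those of Pax6, Lhx2 and Tbx15 lie downstream of the start, and Tbx19 has none.

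Within each family the widths differed several-fold. The widest and narrowest spans were 14640 bp at Pax7 and 1213 bp at Pax4, and 14161 bp at Lhx5 and 1489 bp at Lhx3, while the widest Nkx span within its region was 12013 bp at Nkx2-2. In the others they were 14410 bp at Six3 and 2557 bp at Six4, 6873 bp at Tbx5 (heart and forelimb) and 538 bp at Tbx10, and 7509 bp at Irx1 and 1794 bp at Irx4, a gene of the heart ventricle. The family medians were 7714 bp for Pax, 6396 bp for the sine oculis genes, 5783.5 bp for Lhx, 4936 bp for Nkx, 4471.5 bp for Irx and 3199 bp for Tbx. Spans over 5 kb were found at 28 of the 55 genes (50.9%) and at 239 of all genes (1.12%). Grouped by where the genes act, the median was 11041 bp for 5 genes of the pancreas, 6822 bp for 8 of the eye, 6273.5 bp for 4 of thyroid and lung, 5130 bp for 11 of axial skeleton and muscle, 5028 bp for 7 of the limb, 4796 bp for 7 of the kidney, 3490 bp for 2 of lymphocytes and 3485 bp for 11 of the heart. These groups share genes and are given as a description.

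Other lists of genes had wide spans too. The 39 genes of the Hox clusters had a median of 4505 bp, 50 other developmental factors 4683 bp, and 20 transcription factors of the hepatocyte, which the liver uses, 4361.5 bp. The 12 enzymes and partners that write or erase DNA and histone methylation, which most cells use, had 1998.5 bp. Median methylation inside the span was 4.79% in the 55 genes and 1.63% over all genes, so that these wide spans were not emptier than others. Their sequence was also less dense in CpGs than that of other spans, with a median GC content of 54.7% compared with 58.5% and a ratio of observed to expected CpGs of 0.597 compared with 0.708.

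Methylation beside the spans was lower than over all genes. In the 1 kb outside the span, its median was 30.1% on the 5′ side and 32.6% on the 3′ side, compared with 64.1 and 59.8% over all genes. In the rest of the region it was 52.3% compared with 81.5%. The 1 kb can include another stretch of low methylation, as on the 3′ side of Lhx1, at 3.62%. These medians therefore do not show how steep the edges were. Running methylation reached 60% at a median of 851 bp beyond the 5′ edge (32 spans) and 801 bp beyond the 3′ edge (38 spans). The other spans did not reach 60% within the followed region and are left out, so that these medians are too short for the whole set. No value over all genes is given for this distance. At Pax6 it took 7102 bp on the 3′ side and at Lhx4 7021 bp, whereas at Tbx6 it took 61 bp. The region often held more than 1 span, as in 40 of the 55 genes, with up to 7 at Tbx2, a gene named after its values were seen.

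The longest span covered the gene start in 37 genes, and in 11 more a shorter span did. In these 11 the longest span lay inside the gene at Pax6, Pax9, Lhx2, Lhx3, Lhx9, Tbx4, Tbx5, Tbx15 and Irx4 and upstream of it at Tbx18 and Nkx2-5. At Tbx15, for example, it ran from 11968 to 16995 bp past the start, and at Lhx2, a gene of eye and limb, from 7067 to 13837 bp. The gene start here is the outermost annotated one, and these spans can hold other transcript starts of the gene. The longest span held 20 of 29 transcript starts at Pax6, 2 of 3 at Pax9, 2 of 5 at Lhx2 and 2 of 6 at Lhx9. It held 1 of 3 at both Tbx4 and Tbx15 and 0 of 1 at Tbx5. Another 6 genes had spans but none on the start. Pax8, of thyroid and kidney, had its span from 1030 to 2715 bp past a start with 68.4% methylation. Nkx6-3, of the stomach, had its span from 4102 to 5511 bp past a start at 74.7%. At Tbx10 the span lay near the gene end, 7195 bp past a start at 65.1%. Nkx2-6, of pharynx and heart, had a start at 28.3% and a span from 2418 to 3861 bp. At Pax4, of the islets, the span ended 1271 bp upstream of a start at 80.0%, and at Tbx6, of the early somites, it ended 3735 bp upstream of a start at 37.0% and held the starts of Ypel3 and Gm9967. Tbx19, which drives the corticotroph hormone gene in the pituitary, had no span, and its start was at 85.1%.

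Start methylation, taken within 500 bp on either side, was under 10% in 45 of the 55 genes (81.8%) and over 50% in 5 (9.09%). Over all genes the shares were 53.8 and 33.5%. The lowest values were 0.342% at Six5 and 0.445% at Irx3, both named after their values were seen. Upstream sequence is shown as an example for a pair of genes with an unmethylated and a pair with a methylated start. Each run is the 150 bases before the start, 5′ to 3′ on the strand of the gene in mm9, with capitals at the CpGs that were measured. They are Six3 (chr17:86012798-86012947, plus strand), Irx3 (chr8:94325554-94325703, minus strand), Pax4 (chr6:28399354-28399503, minus strand) and Tbx19 (chr1:167090905-167091054, minus strand).
Six3 upstream: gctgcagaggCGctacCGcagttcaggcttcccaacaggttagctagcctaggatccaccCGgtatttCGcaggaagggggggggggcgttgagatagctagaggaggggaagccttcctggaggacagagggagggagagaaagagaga
Irx3 upstream: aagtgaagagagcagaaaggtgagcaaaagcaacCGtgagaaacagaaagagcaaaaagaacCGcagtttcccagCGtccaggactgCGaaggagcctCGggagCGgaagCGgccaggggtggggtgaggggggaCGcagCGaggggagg
Pax4 upstream: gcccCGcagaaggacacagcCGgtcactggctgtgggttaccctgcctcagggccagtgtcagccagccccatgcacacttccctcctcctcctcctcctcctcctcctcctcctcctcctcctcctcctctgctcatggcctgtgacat
Tbx19 upstream: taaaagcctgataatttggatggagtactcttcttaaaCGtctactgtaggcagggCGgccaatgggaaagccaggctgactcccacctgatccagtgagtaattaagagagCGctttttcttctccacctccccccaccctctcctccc
These runs held 4 measured CpGs at Six3 and 9 at Irx3, with 1.40 and 0.674% methylation, and 2 at Pax4 and 3 at Tbx19, with 84.0 and 77.7%. In the RefSeq promoters of GRCm38.p6, 300 bases around each start, 41 of the 55 genes matched with 50 promoters, and these held a median of 17 CpGs compared with 7 over all 32851 promoters. Of the matched genes methylated at the start, Tbx10 held 4, and Pax8 and Tbx19 held 7 each. Lhx9 held 6, and its mm9 gene start was at 3.72% over the 48 CpGs within 500 bp. Promoters were matched by gene symbol and not by position, so a count and a level may belong to different starts. Whether the number of CpGs separates the starts was not tested.

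The letters of 4 motifs were searched on both strands. TAATTA, the core that many homeodomains bind, was in 2 of the 50 promoters (4%) and 5.29% of all, and occurred 64 times in 28 of the 54 spans. CACTTG, the core bound by Nkx2 proteins, was in 4 promoters (8%) and 13.6% of all, and occurred 156 times in 45 spans. AGGTGTGA, from the T-box site, was in 0 promoters and 1.28% of all, and in 4 spans. TCAGGTTTC, from a site bound by Six4, was in 1 promoter (2%), that of Six4, and 0.429% of all, and occurred 3 times in 2 spans. These are counts of letters, not of bound sites.

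The first comparison was of the 6 B6 with the 6 C3 parents, which asks where genotype goes with methylation. A differentially methylated region (DMR) was a run of at least 5 CpGs, most of them different at p below 1e-05 in a beta-binomial Wald test, with a difference of at least 20 points. A DMR was found in 5 of the 55 genes (9.09%), compared with 6.22% of all genes. DMRs with higher methylation in B6 were in 1 gene (3.01% of all genes) and with higher methylation in C3 in 5 (3.85%), Pax7 having both kinds. In these regions, 167 of 30255 CpGs tested (0.552%) passed the Wald threshold, compared with 0.507% of all autosomal CpGs. The shares of these genes were thus near the background, and the values below are given as a description, since the DMRs were chosen by their difference.

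Pax7 held 3 of the 7 DMRs, all in introns. The one with the widest gap, at chr4:139351971-139352657 and 36788 to 37474 bp into the gene, had 13 CpGs. Methylation was 60.0 to 69.9% in B6 (median 68.9%) and 20.4 to 26.1% in C3 (median 23.5%), and all 12 F1 animals lay between the parental means, at 40.2 to 57.0% in B6C3F1 and 44.4 to 50.9% in C3B6F1. The DMR at chr4:139306511-139306747, 82698 bp into the gene, had 9 CpGs with 70.5 to 76.8% in B6 (median 74.9%) and 32.4 to 42.1% in C3 (median 36.6%). Depth there was 25.2 reads per CpG and animal in B6 and 14.3 in C3. The F1 animals again all lay in between, at 55.3 to 68.1% in B6C3F1 and 49.4 to 67.8% in C3B6F1. At chr4:139347355-139347563 the order was the reverse. Its 10 CpGs had 16.4 to 30.2% in B6 (median 23.8%) and 47.3 to 63.2% in C3 (median 56.9%), and 11 of the 12 F1 animals were in between.

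The DMR sequences are shown because a strain's SNVs can make or remove CpGs. Each run is the plus strand of mm9, 5′ to 3′, with measured CpGs in capitals, and covers the whole DMR or, for those over 300 bp, the 300 bases with most CpGs. SNVs are given as the B6 base, the position in the run counted from 1, and the C3 base. The runs of Pax7 are chr4:139306511-139306748 (Pax7 DMR 1), chr4:139347355-139347564 (Pax7 DMR 2) and chr4:139351971-139352270 (Pax7 DMR 3).
Pax7 DMR 1: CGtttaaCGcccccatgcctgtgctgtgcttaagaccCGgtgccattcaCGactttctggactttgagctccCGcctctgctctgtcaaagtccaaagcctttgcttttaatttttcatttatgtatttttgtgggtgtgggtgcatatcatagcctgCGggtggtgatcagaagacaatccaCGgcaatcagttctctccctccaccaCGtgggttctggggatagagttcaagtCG
Pax7 DMR 2: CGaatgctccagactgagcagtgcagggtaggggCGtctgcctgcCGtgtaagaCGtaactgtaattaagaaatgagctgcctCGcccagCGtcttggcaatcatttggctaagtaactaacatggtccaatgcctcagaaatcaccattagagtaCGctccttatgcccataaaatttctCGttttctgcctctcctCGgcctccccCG
Pax7 DMR 3: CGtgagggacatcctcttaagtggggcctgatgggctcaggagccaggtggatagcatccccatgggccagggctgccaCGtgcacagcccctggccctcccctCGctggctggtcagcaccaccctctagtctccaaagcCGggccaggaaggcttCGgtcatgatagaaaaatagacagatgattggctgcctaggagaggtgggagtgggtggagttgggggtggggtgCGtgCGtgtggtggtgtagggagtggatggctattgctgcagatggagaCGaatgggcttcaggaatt
Pax7 DMR 1 had the SNVs G161T and A173G, DMR 3 had T226C in the run shown, and DMR 2 had none. T226C makes a CG in C3 that B6 lacks and that was not among the measured CpGs. G161T and A173G neither make nor remove a CG. The counts cover CpGs present in both strains, and no measured CpG in the regions of the 55 genes was at a listed SNV. The whole Pax7 region held 448 SNVs, or 4.37 per kb, compared with a median of 0.407 per kb in the 55 genes.

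**Figure D2:**
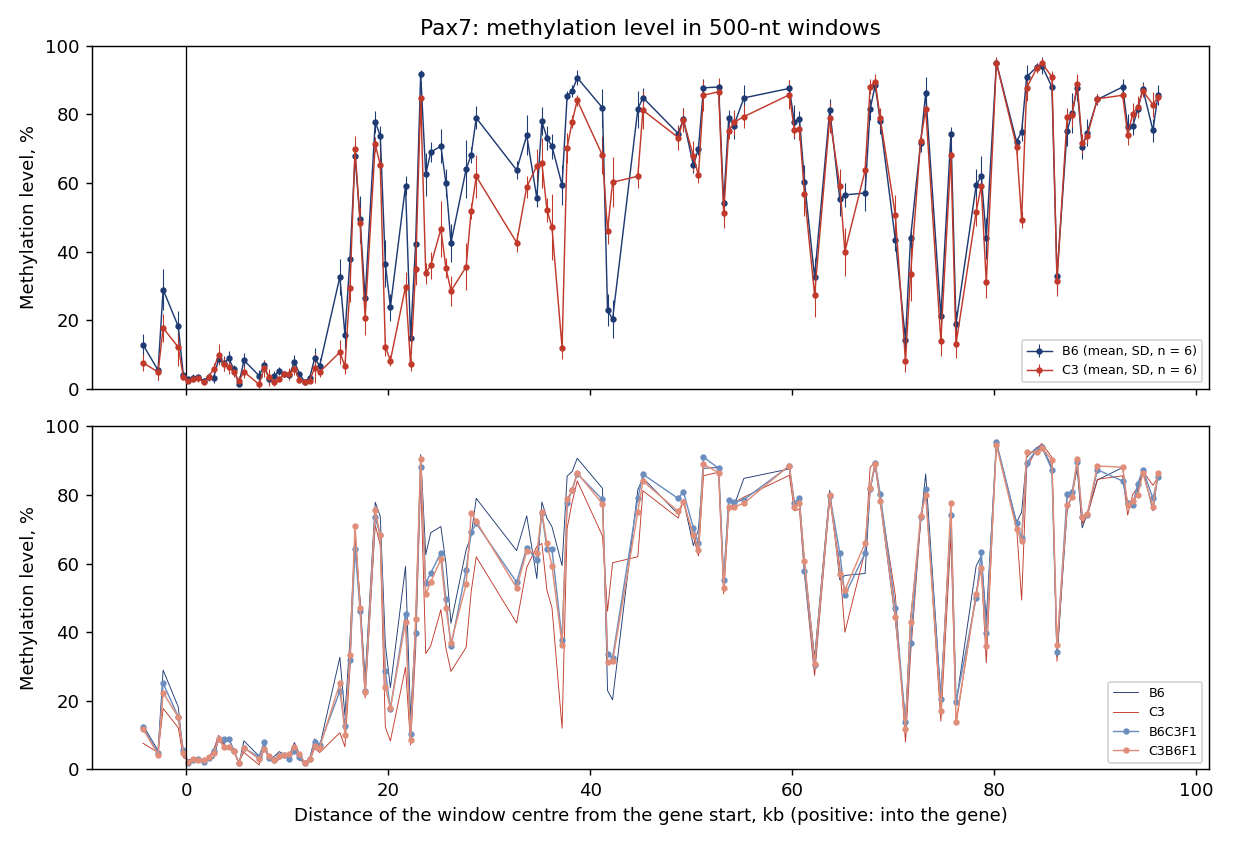
Methylation level (%) in 500-nt windows along Pax7 against distance of the window centre from the gene start in kb, with mean and SD of 6 B6 and 6 C3 animals above, and below the means of all 4 groups. Levels are low across the span in every group, and past it B6 lies above C3 in most windows with the crosses in between.

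The difference at Pax7 was not limited to the DMRs. Windows of 500 nt were tested over the genome with limma, and were called at an adjusted p below 0.05 and at least 20 points. At least 1 window was called in 9 of the 55 genes (16.4%), compared with 11.8% of all genes, and 15 of the 29 windows called were in Pax7. Of the 2070 windows tested in these regions 1.40% were called, compared with 0.494% of windows over the genome. Of the 15 in Pax7, B6 was the higher strain in 13 and C3 in 2. B6 was higher in 93 of the 121 windows of the gene. Outside the span, mean methylation of the windows was 64.01% ± 0.645 (SD, n = 6) in B6 and 57.6% ± 0.537 in C3, and 61.9% ± 0.688 in B6C3F1 and 61.4% ± 0.618 in C3B6F1. The median depth was 26.3 reads per CpG in B6 and 18.3 in C3, and 23.3 and 20.1 in the crosses, so that the strain with SNVs against the reference also had fewer reads. The part of alignment in this difference was not tested.

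The other 4 DMRs all had higher methylation in C3. Nkx2-6 had the longest, 758 bp with 18 CpGs at chr14:69788776-69789533, which ended 100 bp before the start of the gene. Methylation was 35.3 to 42.4% in B6 (median 37.1%) and 63.8 to 72.3% in C3 (median 69.5%), with the crosses at 44.6 to 58.7% and 55.0 to 65.3%. Nkx6-2, of oligodendrocytes and the neural tube, had a DMR of 8 CpGs at -3643 to -3061 bp from its start, chr7:146771757-146772339. It had 12.0 to 22.7% in B6 (median 16.9%) and 46.9 to 54.1% in C3 (median 48.3%), at 30.8 and 24.9 reads. All 12 F1 animals lay between the parental means at Nkx2-6 and at Nkx6-2.

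Tbx5 had a DMR of 59 bp and 6 CpGs in an intron, at chr5:120317077-120317135. Methylation was 18.8 to 37.4% in B6 (median 28.9%) and 41.5 to 66.8% in C3 (median 58.7%), and all 12 F1 animals were in between. Tbx6 had a DMR of 5 CpGs at -793 to -691 bp from its start, chr7:133924204-133924306. It had 6.73 to 18.8% in B6 (median 12.9%) and 28.8 to 47.5% in C3 (median 34.8%). Here the F1 animals were near B6, at 13.3 to 20.0% in B6C3F1 and 6.58 to 28.0% in C3B6F1, and only 8 of the 12 lay between the parental means. None of the 7 DMRs overlapped an exon. With at least 10 reads required in every animal, the DMRs of Nkx6-2 and Tbx5 were not called and one in Lhx9 was. The runs below are of Nkx2-6 (chr14:69788832-69789131), Nkx6-2 (chr7:146771958-146772257), Tbx5 (chr5:120317077-120317136) and Tbx6 (chr7:133924204-133924307).
Nkx2-6 DMR 1: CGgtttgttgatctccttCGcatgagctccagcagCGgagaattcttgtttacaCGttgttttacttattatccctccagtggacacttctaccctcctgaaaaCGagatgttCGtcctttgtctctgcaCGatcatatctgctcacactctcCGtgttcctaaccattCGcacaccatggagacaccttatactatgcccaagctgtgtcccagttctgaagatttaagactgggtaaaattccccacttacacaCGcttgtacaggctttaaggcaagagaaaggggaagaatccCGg
Nkx6-2 DMR 1: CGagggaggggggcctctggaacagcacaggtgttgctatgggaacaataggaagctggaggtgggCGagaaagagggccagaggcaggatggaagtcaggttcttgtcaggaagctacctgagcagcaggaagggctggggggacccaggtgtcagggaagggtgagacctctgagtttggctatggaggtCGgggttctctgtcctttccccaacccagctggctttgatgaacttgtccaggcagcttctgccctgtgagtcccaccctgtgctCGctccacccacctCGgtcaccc
Tbx5 DMR 1: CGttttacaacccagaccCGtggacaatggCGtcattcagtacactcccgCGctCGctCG
Tbx6 DMR 1: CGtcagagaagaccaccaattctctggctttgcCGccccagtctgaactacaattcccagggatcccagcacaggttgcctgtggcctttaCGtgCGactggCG
The Tbx5 run had the SNV C49T, at a CG in lower case that was not among the measured CpGs. The other 3 runs had no SNV.

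**Figure D3:**
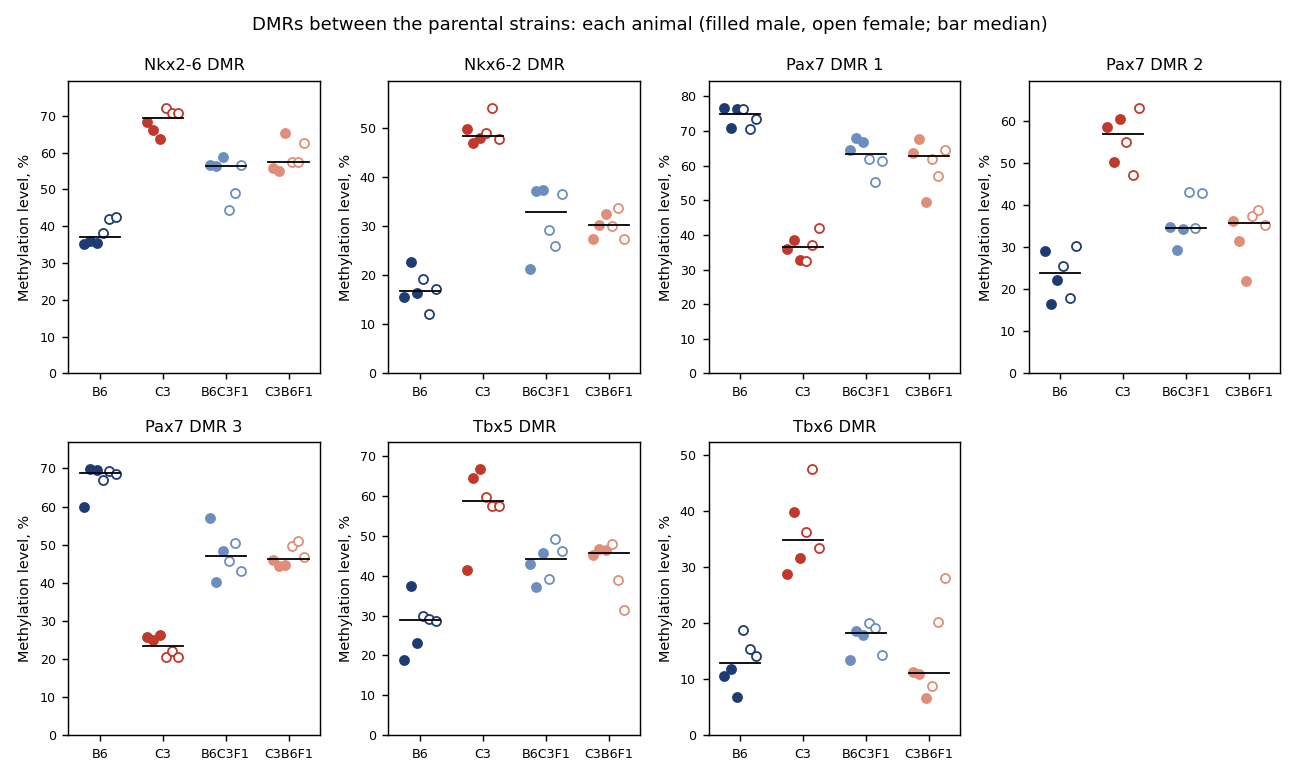
Methylation level (%) of each of the 24 animals at the 7 DMRs, with filled points for males, open points for females and a bar for the median of each group. The DMRs were chosen by the difference of B6 and C3, and at Tbx6 the crosses sit near B6.

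To compare whole parts of a gene region, reads were summed over 4 kinds of zone (span, 1 kb beyond its 5′ edge, 1 kb beyond its 3′ edge, and the rest). Between B6 and C3, 8 of the 187 zones tested in the 55 genes (4.28%) were called at a limma adjusted p below 0.05 and at least 10 points, compared with 3.55% of 62128 zones of all genes. Higher methylation in B6 was called in 2 zones (1.43% of all zones) and in C3 in 6 (2.12%). None of the 54 spans was called, compared with 0.214% of the spans of all genes, and the largest difference in a span was 4.50 points. The low level that defines a span limits such a difference. Zones called were 4 of 39 on the 5′ side (10.3%, compared with 7.61% of all genes), 3 of 44 on the 3′ side (6.82%, compared with 8.09%) and 1 of 50 in the rest of the region (2%, compared with 0.472%). In both sets the edges were called most often. Without a minimum difference 49 zones had an adjusted p below 0.05 (26.2% compared with 29.7% of all zones), of which 9 were higher in B6 (6.79% of all) and 40 in C3 (22.9%).

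Higher methylation in B6 was found at the 3′ edges of Pax7 and Lhx9. At Pax7 the zone had 29.9 to 44.6% in B6 (median 34.1%) and 9.46 to 18.6% in C3 (median 12.4%), a difference of 21.5 points over 5 CpGs (limma adjusted p = 1.59e-06). At Lhx9, of gonad and limb, it was 16.8 to 34.3% in B6 (median 23.5%) and 7.92 to 11.02% in C3 (median 9.77%), or 15.6 points (limma adjusted p = 2.16e-05). B6 animals were spread widely at Lhx9, but none reached down to the C3 animals, and the F1 animals were nearer to C3, at 8.76 to 25.1%.

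Higher methylation in C3 was largest in the rest of the Nkx2-6 region, outside its span and edges. There the zone of 89 CpGs had 36.3 to 44.6% in B6 (median 39.3%) and 57.6 to 63.8% in C3 (median 61.3%), a difference of -21.2 points (limma adjusted p = 4.36e-09). This zone includes the Nkx2-6 DMR. At the 5′ edge of Pax4 it was 32.6 to 40.1% in B6 (median 37.6%) and 51.9 to 60.1% in C3 (median 57.9%), or -20.0 points (limma adjusted p = 1.01e-06). At the 5′ edge of Six5, a gene next to the myotonic dystrophy kinase, it was 39.4 to 47.9% in B6 (median 44.9%) and 61.3 to 71.1% in C3 (median 62.4%), or -19.7 points (limma adjusted p = 2.59e-07). The other called zones were both edges of Six4, at 36.8% ± 3.88 and 50.5% ± 4.79 on the 5′ side and 44.8% ± 3.66 and 59.7% ± 2.91 on the 3′ side (SD, n = 6 each, B6 before C3), and the 5′ edge of Nkx6-3, at 65.1% ± 3.87 and 75.2% ± 3.40. The last was near the 10-point limit, at -10.2 points, and kept its call in 5 of the 12 fits without 1 parent (-11.4 to -9.16 points). The limma adjusted p of these zones was 0.00312, 2.01e-05 and 0.000514. In 4 of the 8 zones, at Pax7, Pax4, Six5 and Nkx2-6, all 12 F1 animals lay between the parental means. The limma interaction of strain and sex passed the threshold in 0 of the 8 (adjusted p = 0.895 to 0.997, none of them under an unadjusted p of 0.05).

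**Figure D4:**
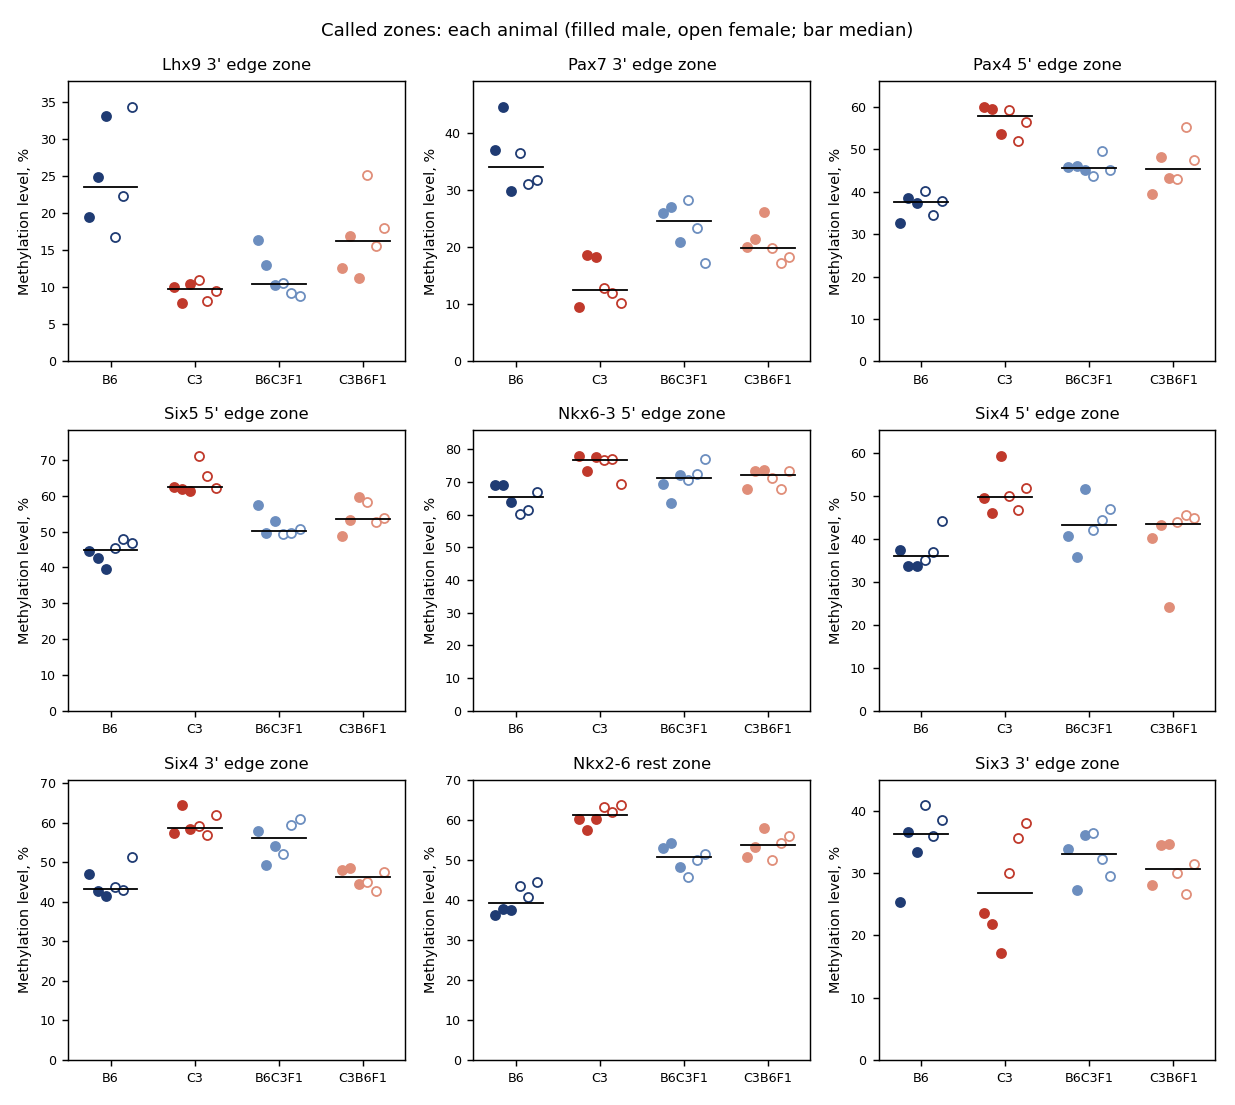
Methylation level (%) of each of the 24 animals in the 8 zones called between B6 and C3 and, in the last panel, the zone of Six3 called between sires and dams, with filled points for males, open points for females and a bar for the median of each group. C3 lies above B6 in the zones of Nkx2-6, Pax4, Six5, Six4 and Nkx6-3 and below it at the 3′ edges of Pax7 and Lhx9.

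Widths were also measured in each animal, as the run below 20% that overlaps the pooled span most. Between B6 and C3, 8 of 54 widths (14.8%) differed at a limma adjusted p below 0.05, compared with 9.87% of 13902 genes, and all 8 were wider in B6 (8.16% of genes were wider in B6 and 1.71% in C3). The fitted difference was toward a wider span in B6 in 47 of the 54 genes and in 8758 of the 13902. The median ratio of B6 to C3 was 1.14 in the 54 genes and 1.02 over all. Depth moved with this result, since the share of running windows with under 20 reads, which end a span, was 0.103 to 2.52% in B6 (median 0.238%) and 0.582 to 4.16% in C3 (median 1.30%). With each animal thinned to the reads of the shallowest 9 widths were called (9.63% of all genes), all wider in B6. Only 5 of the 8 were among them, those of Pax6, Six5 and Nkx2-3 being lost. The thinning used a single share of reads per animal over the genome, so that local gaps in depth between the strains stayed. With windows of few reads bridged 11 were called (10.7% of all genes), 7 of the 8 among them, 8 wider in B6 and 3, those of Lhx9, Pax7 and Nkx2-6, wider in C3. Fewer of the 54 fitted differences were then toward B6, though most still were.

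Lhx4 had the largest fitted width difference of the 8, a rank it did not keep when windows with few reads were bridged. Its span was 9011 to 12193 bp in B6 (median 11753 bp) and 3073 to 3641 bp in C3 (median 3542 bp), a ratio of 3.25 (limma adjusted p = 1.05e-06), and the F1 animals were at 6253 to 12193 bp. In C3 the called span ended at a median of 3471.5 bp past the start and in B6 at 10133 bp. Methylation did not rise at that C3 end. In windows centred at 3906, 4406 and 4906 bp past the start, its mean was 3.00, 2.19 and 2.13% in C3. In B6 it was 1.99, 2.23 and 2.16% there. At 6406 bp it was 19.1% in C3 and 12.2% in B6. When windows with few reads were bridged, the C3 median width was 7807.5 bp. The log2 ratio of widths then fell from 1.70 to 0.66, still past the threshold. At Pax6 the width was 6820 to 19684 bp in B6 (median 11119.5 bp) and 2697 to 6599 bp in C3 (median 4445 bp), a ratio of 2.60 (limma adjusted p = 0.00161). At Tbx5 it was 5444 to 7008 bp in B6 (median 6909 bp) and 2272 to 4143 bp in C3 (median 3800.5 bp), a ratio of 1.88 (limma adjusted p = 0.00125). Neither Pax6 nor Tbx5 was called with a span threshold of 10%, and Pax6 was not with reads thinned to the shallowest animal.

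The other 5 genes with a wider span in B6 were Irx1, Six5, Nkx2-3, Lhx3 and Pax4, of which Nkx2-3 was named after its values were seen. Their medians in B6 and C3 were 7478.5 and 4236 bp, 2689 and 1321 bp, 4909 and 2957 bp, 1826.5 and 1416 bp, and 1216 and 1074.5 bp. The Six5 medians were 2748 and 2663 bp when windows with few reads were bridged, and the width of Irx1 was not called then. With a span threshold of 10%, 3 of the 8 were among the 6 widths called, those of Lhx4, Pax4 and Six5. With 30%, 6 of the 8 were among 9, and Lhx9 was 2.70-fold wider in C3 (limma adjusted p = 0.00131). Lhx3 and Nkx2-3 changed direction with another span threshold, and only Lhx4 and Pax4 were called under every setting tried for the width. At Pax7, widths in single animals were 6652 to 7125 bp in B6 and 4194 to 8694 bp in C3 (limma adjusted p = 0.753), less than the pooled span. With windows of few reads bridged, they were 6652 to 7235 bp in B6 and 10595 to 16827 bp in C3 and were 1.96-fold wider in C3 (limma adjusted p = 0.00396). With a threshold of 30% they were 2.12-fold wider in B6 (limma adjusted p = 0.00269), and with thinned reads 1.85-fold wider in B6 (limma adjusted p = 0.0173). The direction of the Pax7 width thus depended on the setting, and none is given.

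**Figure D5:**
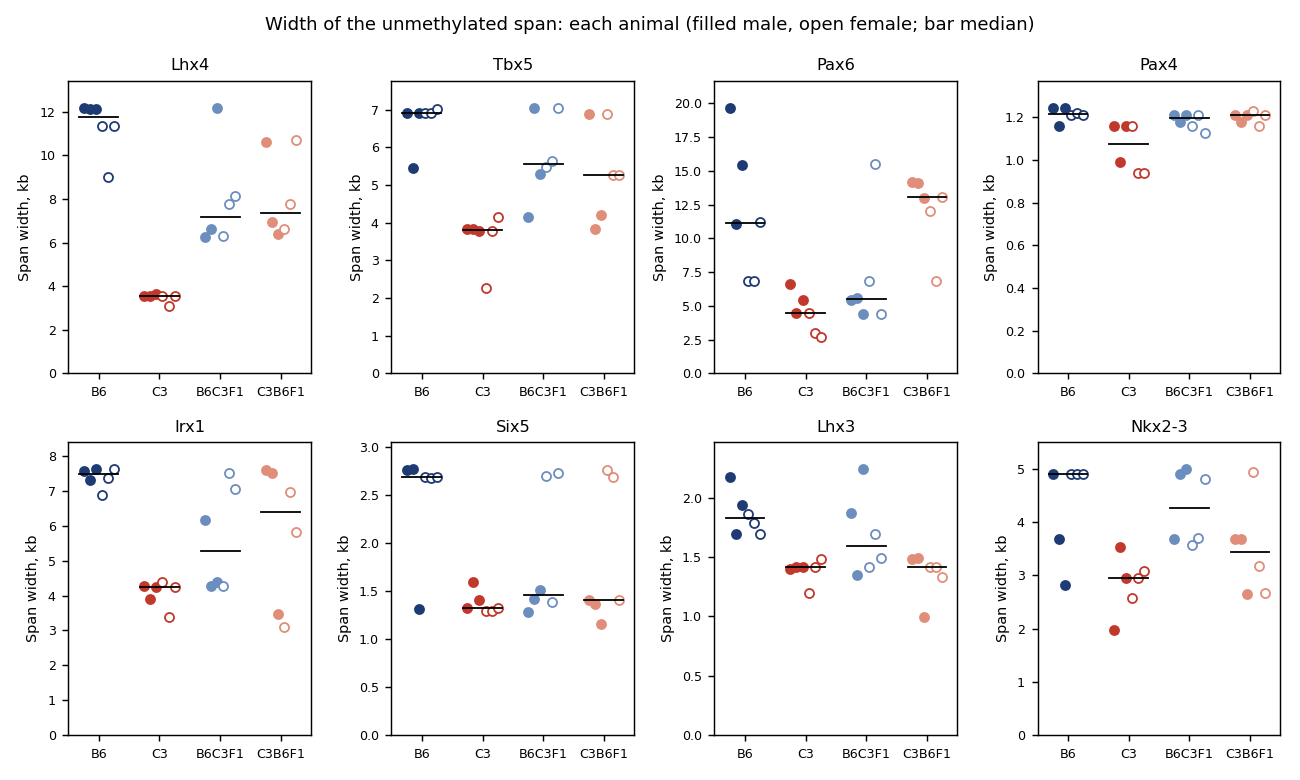
Span width in kb of each of the 24 animals for the 8 genes called between B6 and C3, with filled points for males, open points for females and a bar for the median of each group. Windows with few reads end a span here. The strains are farthest apart at Lhx4, at 9011 to 12193 bp in B6 and 3073 to 3641 bp in C3, with most cross animals between them. With such windows bridged (not drawn), C3 was at 4526 to 8072 bp there and Lhx4 did not keep this rank.

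The second comparison was of the 6 sires with the 6 dams, which asks what goes with sex and with having borne pups. No DMR was found in the 55 genes, compared with 1.66% of all genes, and 12 of 30713 CpGs passed the Wald threshold (0.0391%, compared with 0.122% of all CpGs). Of 187 zones 1 was called (0.535%, compared with 0.488% of all zones and 0.29% called higher in dams), the 3′ edge of Six3. Without a minimum difference 2 zones had an adjusted p below 0.05, compared with 6.57% of all zones. The Six3 zone had 17.2 to 36.6% methylation in sires (median 24.5%) and 30.1 to 41.0% in dams (median 37.0%), a difference of -10.2 points (limma adjusted p = 0.00641), and the ranges of the groups overlapped. Within B6, sires had 31.8% ± 5.85 and dams 38.5% ± 2.47 (p = 0.2 by an exact permutation test, n = 3 each). Within C3 these were 20.9% ± 3.35 and 34.6% ± 4.10 (p = 0.1, the smallest that an exact test of 3 against 3 allows). The zone was at 31.1% ± 3.30 in virgin F1 females, 5.48 points below dams (two-sided exact permutation test of this chosen zone, p = 0.0325, n = 6). The values of these same dams had helped to choose the zone, which tilts this test toward higher dams. By limma no zone of the 55 genes was called between dams and F1 females. F1 males had 32.4% ± 3.76, or 1.37 points more than F1 females (two-sided exact permutation test of F1 males against F1 females, p = 0.504, n = 6). The call was lost when any of 6 animals was left out, which were B6 females 1 and 3, C3 males 1, 2 and 3, and C3 female 3, each time with a difference between -9.93 and -8.38 points.

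A single window of 500 nt was called between sires and dams, in 1 of the 55 genes (1.82%) compared with 3.42% of all genes. It lay in an intron of Pax5, a gene of B cells, at chr4:44615501-44616000, and was chosen after its values were seen. Methylation was 69.4% ± 7.72 in sires and 48.4% ± 7.22 in dams (SD, n = 6, limma adjusted p = 0.00022). In the whole Pax5 region 8 of 2685 CpGs passed the Wald threshold between sires and dams, all higher in sires, and 6 passed between dams and virgin F1 females, all higher in F1 females. The same dams are in both comparisons, and F1 females also differ from dams in genotype. Of the 2070 windows in these regions, 0 were called between dams and F1 females. Of the widths, 0 of 54 were called by limma between sires and dams (0.158% of all genes), with 3 at an unadjusted p below 0.05 (5.56%, compared with 4.81% of genes).

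The third comparison was of dams with virgin F1 females, which differ in having borne pups and in genotype. Dams and F1 females came from the same families. The Wald threshold was passed by 7 of 30761 CpGs (0.0228%, compared with 0.0229% of all CpGs), the 6 of Pax5 and 1 of Tbx10. No DMR (0.299% of all genes), no zone (0.0917% of all zones) and no width (1.05% of genes) was called in the 55 genes, with 11 zones (5.88%, compared with 12.7% of all zones) and 5 widths (9.26%, compared with 7.51% of genes) at an unadjusted limma p below 0.05. The zones with the smallest p were the rest of Tbx19, at 80.5% ± 0.365 in dams and 81.9% ± 0.612 in F1 females (limma adjusted p = 0.0560), the span of Nkx2-1, at 4.32% ± 0.547 and 3.62% ± 0.335 (adjusted p = 0.222), and the 3′ edge of Lhx5 at 62.7% ± 5.48 and 68.6% ± 2.90 (adjusted p = 0.258).

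The fourth comparison was of the 6 F1 males with the 6 F1 females, which asks what goes with sex among animals that have not bred. Again no DMR (0.766% of all genes), zone (0.164% of all zones) or width (0.0144% of genes) was called, with 6 zones (3.21%, compared with 9.4% of all zones) and 5 widths (9.26%, compared with 4.59% of genes) at an unadjusted limma p below 0.05. The zones with the smallest p were the 3′ edge of Tbx6, at 72.5% ± 3.45 in males and 67.5% ± 2.32 in females (limma adjusted p = 0.180), the 3′ edge of Irx3, at 57.9% ± 3.00 and 63.2% ± 1.29 (adjusted p = 0.275), and the rest of Nkx2-1, at 14.6% ± 2.09 and 18.1% ± 1.63 (adjusted p = 0.278).

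The last comparison was of B6C3F1 with C3B6F1, which have the same autosomal genotype from opposite parents. No DMR (0.0327% of all genes), zone (0.00322% of all zones) or width (0.0144% of genes) was called, with 19 zones (10.2%, compared with 9.97% of all zones) and 5 widths (9.26%, compared with 7.29% of genes) at an unadjusted limma p below 0.05. At the 3′ edge of Six4 the 6 B6C3F1 animals, at 49.3 to 60.9% (median 56.0%), all lay above the 6 C3B6F1 animals, at 42.8 to 48.6% (median 46.2%), a difference of 9.59 points (limma adjusted p = 0.175). The 3′ edge of Tbx1, of the pharynx and great vessels, had 36.6% ± 1.73 and 31.2% ± 3.13 (adjusted p = 0.226) and the 5′ edge of Lhx3 24.3% ± 3.80 and 30.3% ± 3.07 (adjusted p = 0.256). The comparison of dams with F1 females shares dams with the comparison of sires with dams, and F1 females with that of F1 males and females.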

How the data were processed

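Whole-genome bisulfite sequencing of liver from 24 mice was analysed. Per the labels and the study's methods, the authors filtered reads by mean base quality, aligned reads of all strains to mm9 with the phage λ genome using Bismark 0.7.8 and Bowtie 0.12.8, removed duplicates, clipped the first 4 and last 1 bases of each second read, trimmed mates where they overlapped and pooled libraries from the same animal. The submitters' notes also name CASAVA 1.8.2, Picard 1.110, Bowtie 1.2, bedtools 2.24.0 and cutadapt 1.2.1. The deposited values are counts of methylated and unmethylated reads per CpG and animal, not normalized, at CpGs present in mm9 and in both strains. A deposited list of SNVs gives the base of each strain. All 48 columns of counts were used.

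Percent methylation was computed here as methylated over all counts, so that depth (19.4 to 32.8 reads per CpG) sets its precision. Genes and coordinates are those of GENCODE for mm9, counted from 1. The families and gene lists were chosen with earlier results of these data known. Spans needed at least 10 CpGs, gaps of at most 1000 bp and at least 20 reads per running window of 5 CpGs. Zones needed at least 5 CpGs and 30 reads in every animal. limma 3.58.1 (R 4.3.3) was fitted with trended, robust variances and 8 means (strain or cross by sex), over all zones (log2 ratio of methylated to unmethylated counts, pseudocount 1), all windows or all widths (log2 bp), with Benjamini-Hochberg adjustment over each whole table. DMRs came from a Wald test written here after the model of DSS, which itself was not run. A CpG needed at least 5 reads in 50% of the animals of each group, and 75% of the CpGs of a DMR had p below 1e-05, not adjusted for the number of CpGs, over at least 50 bp. Single values were compared by two-sided exact permutation tests. The span finder, the DMR test and the limma fit of zones were tested on simulated data. Each animal was 1 replicate. Per the study's methods the animals came as families of sire, dam, daughter and son, 3 from each cross, so that F1 males and females were brothers and sisters and the dams were their mothers. The labels do not link animals to families, and the tests treat all as independent.

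Genes named are the 10 with the longest spans, those whose longest span is off the start, the widest and narrowest of each family, and in each comparison those called (the 3 largest per direction where more than 6 were) or, where none was, the 3 zones with the smallest p. Others are said to be named after their values were seen. A pair of genes is counted but not reported here by name.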

Additional observations from a re-analysis of the deposited data

Results flagged for a closer look

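Of the 33 zones, DMRs and widths given by animal, each in 4 groups of 6 animals, 17 of the 132 groups had an animal whose gap to its nearest neighbour exceeded the 95% critical value of Dixon's test. Chance gives about 1 in 20. Most were widths, where a single break in a span moves the value far.

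For methylation, B6 female 3 was highest at the 5′ edge of Six4 at 44.0% (next 37.4%), and C3B6F1 male 3 lowest there at 24.1% (next 40.2%). B6 male 3 was lowest at the 3′ edge of Irx3 at 48.5% (next 60.4%). B6 male 1 was lowest at the DMR 36788 bp into Pax7 at 60.0% (next 66.98%), and C3 male 1 at the Tbx5 DMR at 41.5% (next 57.6%).

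For widths, at Lhx4 B6 female 2 was lowest at 9011 bp, C3 female 2 lowest at 3073 bp and B6C3F1 male 3 highest at 12193 bp. At Lhx3 C3 female 1 was lowest at 1199 bp and C3B6F1 male 3 at 991 bp. At Pax6 B6C3F1 female 2 was highest at 15484 bp and C3B6F1 female 2 lowest at 6873 bp. At Tbx5 B6 male 2 was lowest at 5444 bp and C3 female 1 at 2272 bp. At Six5 B6 male 3 was lowest at 1310 bp, beside 2683 bp in the next animal, and C3 male 2 highest at 1590 bp. At Pax7 B6C3F1 male 3 was highest at 11110 bp.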

How the results depend on the processing

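The median span was 2438 bp with a threshold of 10% and 6237 bp with 30%, compared with 5015 bp, and 4963 to 5040 bp without each animal in turn. Between B6 and C3, the genes with a DMR numbered 8 when 50% of CpGs had to differ and 9 by windows, compared with 5, and 4 to 6 without each animal. Zones called were 49 without a minimum difference and 2 at 20 points, compared with 8 (7 to 10 without each animal), and widths 6 to 8 without each animal. Between sires and dams, 1 gene had a DMR when 50% of CpGs had to differ and 1 by windows, and the 1 zone became 2 without a minimum difference and 0 at 20 points (0 to 1 without each animal). Between dams and F1 females, 2 widths were called with a span threshold of 30% and 0 to 1 without each animal. All other counts stayed at 0, or within 1.5 times, under every alternative run, but the widths called between B6 and C3 were partly of different genes (3 of 8 shared at a threshold of 10%, 6 at 30%, 5 with thinned reads). The B6 and C3 width difference turned to -0.12 (log2) at Lhx3 with a threshold of 10% and to -0.070 at Nkx2-3 with 30%. Without single animals, the 5′ edge of Nkx6-3 fell below 10 points 7 times of 12, and the widths of Lhx3 and Nkx2-3 lost their calls 6 and 8 times. The cause of these changes was not tested beyond what a setting itself fixes. Bridging windows with few reads was added after seeing the data.

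Animals with the same replicate number deviated together weakly at most (84 pairs, r = -0.0534 to 0.129, median 0.0144, 1 over 0.1, compared with a median of -0.0077 for other numbers). Of 24 animals, 13 correlated best with their own number of 3, which was not compared with chance. The 84 pairs join all groups, among them B6 sires with B6 dams, which were not mated to each other. A block by number likewise joins animals of both crosses. Neither check therefore shows whether animals of a family deviated together, which was not tested. With the replicate number as a block, the counts between B6 and C3 were 8 zones and 8 widths, between sires and dams 1 zone and 0 widths, and 0 in the other comparisons. Depth and the few CpGs of some edge zones limit the precision of their values. No limit of detection was computed.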
